A study of Mus musculus with 6 samples.

Results

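Proteasome genes were examined in group 2 innate lymphoid cells (ILC2s) that had been sorted out of mouse lung. The proteasome is the protease that degrades proteins tagged with ubiquitin. Members were the protein-coding genes of the authors' deposited table whose symbol is Psm, a letter from a to g and a number, together with Pomp and Adrm1. This gave 50 of 39527 genes. An adjusted p-value was present for 48 of them and for 14961 genes of the whole table, and absent for Psma8 and Psmb11.

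RNA was sequenced from 6 samples, all taken after 4 days of IL-33 challenge. The 3 KO samples came from R5/+LKB1f/f mice and the 3 WT samples from R5/+ mice. LKB1 is the kinase encoded by Stk11 that switches on AMPK, and IL-33 is the epithelial alarmin that activates ILC2s. Both groups carry R5, which the labels do not spell out. Whether R5 holds the recombinase for the floxed alleles cannot be read from the labels, which also give no age. RNA of 3 to 4 mice was pooled for each sample, so that single animals cannot be told apart.

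For each gene the table holds 1 mean normalized count over the libraries of the authors' fit, 1 log2 fold change and its standard error (SE). Values of single samples were not used here, because their column names match no sample label. No source used here says which genotype stands on top of the fold change, and no gene is therefore called higher or lower in KO. Stk11, the floxed gene, had -1.34 ± 0.30 (SE, adjusted p = 0.000103) per the authors' deposited table. Below, "negative" means a value of that sign at an adjusted p below 0.05, and "positive" the opposite sign at the same threshold. The 12 markers of the labelled cell type had a median of 12072 normalized counts per the authors' deposited table, between 291 for Thy1 and 44552 for the lineage factor Gata3. The IL-33 receptor gene Il1rl1 had 16936 normalized counts, and the cytokine gene Il13 had 619. Of these 12 markers, 3 were negative and 3 positive, against 13.5% and 11.0% of all genes tested.

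The particle is a barrel of stacked alpha and beta rings, the core, capped by a regulatory particle. The outer alpha rings gate the entry, and the inner beta rings hold the catalytic sites. In the regulatory particle, ubiquitin receptors bind the substrate, the lid removes its ubiquitin chain and an ATPase ring threads it into the barrel. In lymphocytes, interferon-inducible catalytic subunits can take the place of the constitutive ones and form the immunoproteasome, which shapes peptides for MHC class I. The proteasome also degrades cyclins during division and the inhibitor that holds NF-kB in the cytoplasm.

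Of the 48 tested members, 30 were negative (62.5%) and 0 positive per the authors' deposited table, against 13.5% negative and 11.0% positive among all 14961 genes. At either sign, 24.5% of all genes passed. The 18 members that did not pass had values below 0 as well, from -0.56 to -0.05. In 8 of these 18 the 95% interval lay below 0, and in 10 it spanned 0. The median log2 fold change of the 48 members was -0.44 per the authors' deposited table, a 1.36-fold difference, against -0.0056 over all genes tested. The 30 negative members lay between -0.90 and -0.37, that is between 1.87-fold and 1.29-fold. At an adjusted p below 0.01, 21 members were negative, against 9.00% of all genes. With a fold change of -0.5 or lower asked as well, 19 were negative, against 10.3% of all genes. Once trends of fold change on gene length and GC content were removed, 17 members were negative, against 11.5% of protein-coding genes. The SD of the 48 fold changes was 0.20, and their median SE was 0.15. In bulk RNA, fewer cells of a type and less RNA per cell cannot be told apart.

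**Figure D1:**
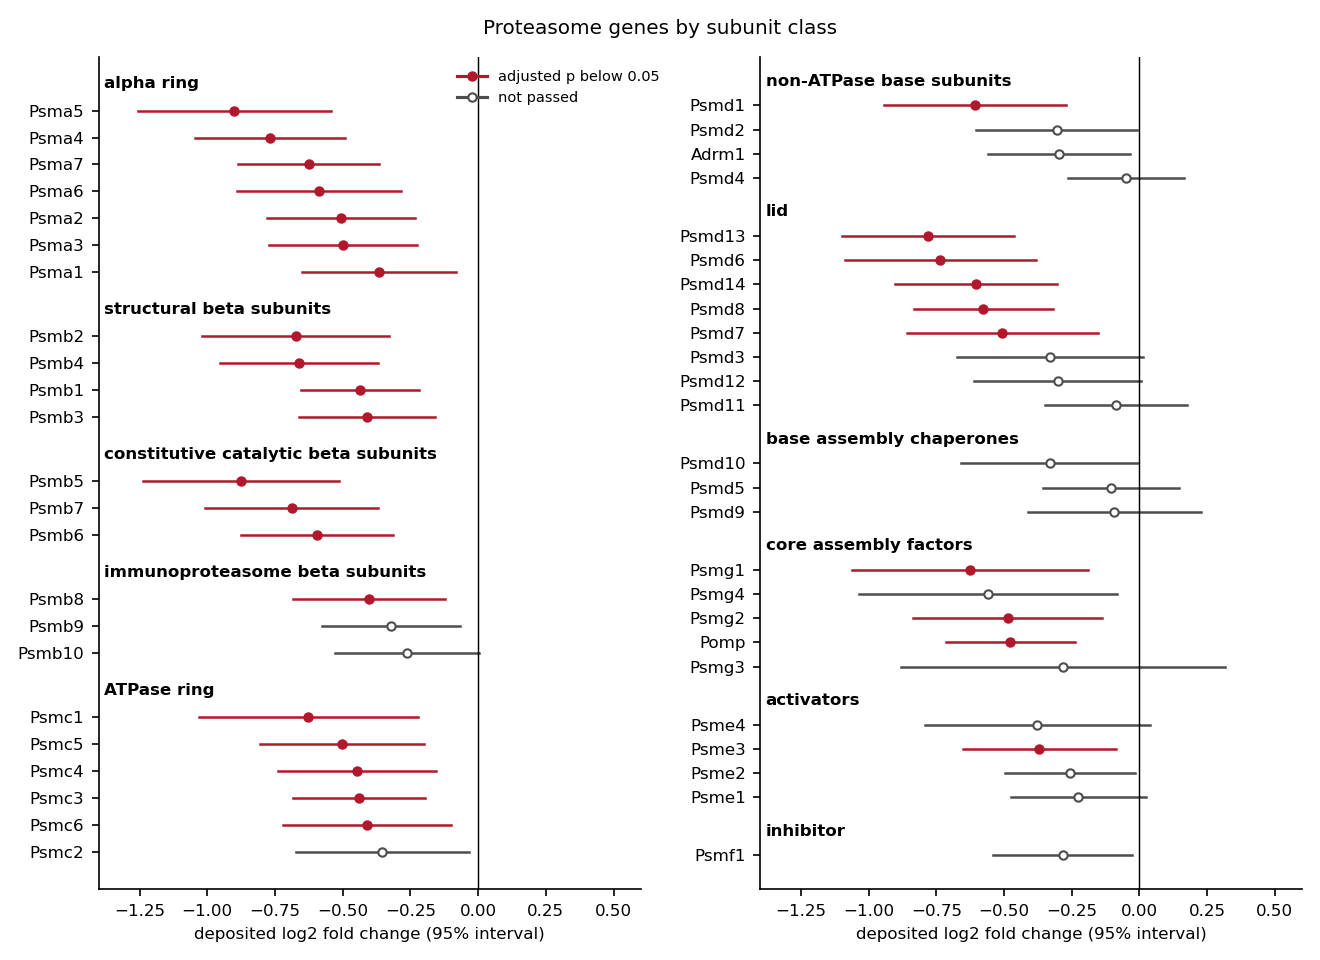
Deposited log2 fold change of the 48 tested proteasome genes by subunit class, with 95% intervals from the deposited SE. Filled red points are the 30 genes with an adjusted p below 0.05 and open points the 18 that did not pass. Every point lies left of 0, and all 14 constitutive core subunits are red.

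Most members are abundant genes. Of the 48, 40 were among the most abundant 25% of tested genes, those with a mean of at least 989.4 normalized counts. Of these 40, 27 were negative (67.5%), against 23.4% of all 3741 genes that abundant. The median of those 3741 genes was -0.037. Across the 48 members the Spearman rho between mean count and fold change was 0.020, a description across genes that share the same libraries.

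**Figure D2:**
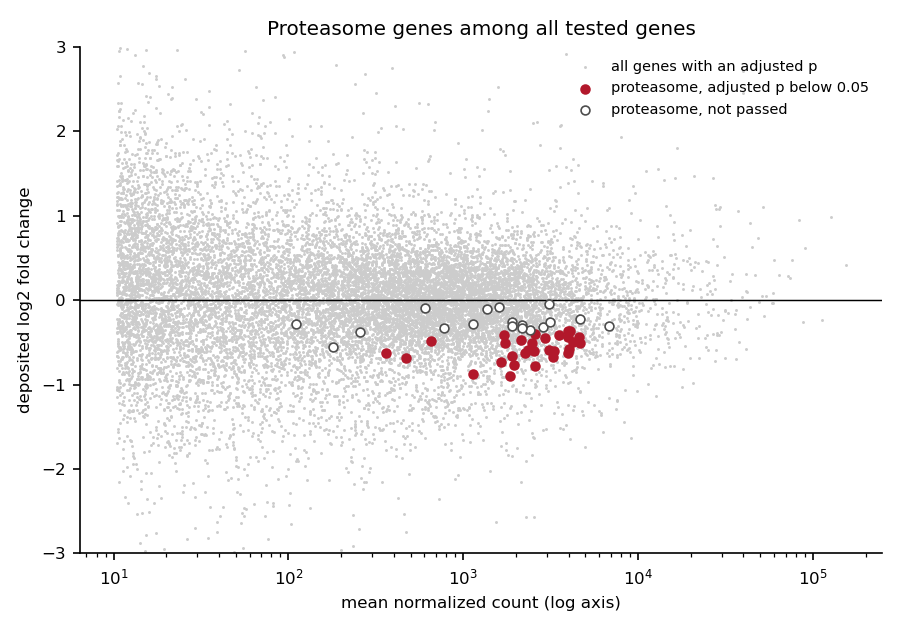
Deposited log2 fold change against mean normalized count (log axis) for all genes with an adjusted p (grey), negative proteasome genes (red) and proteasome genes that did not pass (open). The proteasome genes lie below 0 at means from 111 to 6857 normalized counts. The 100 genes beyond 3 in size are not drawn.

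In the constitutive core, all 14 tested genes of the alpha ring, the structural beta subunits and the constitutive catalytic subunits were negative per the authors' deposited table. Their median was -0.61. With the trends removed, 10 of the 14 were negative. For these and the core classes below, the shares to compare are 13.5% negative over all genes and 23.4% over the most abundant 25%. With the trends removed, 11.5% of protein-coding genes were negative. The thymus-specific Psmb11 and the testis-specific Psma8 had means of only 4.96 and 2.98 normalized counts. Their values lay above 0, at 3.75 ± 1.60 and 0.32 ± 1.71 (SE) per the authors' deposited table, without an adjusted p.

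The alpha subunits are structural, and their tails close the gate of the barrel. In this ring 7 of 7 tested genes were negative, with a median of -0.59. With the trends removed, 5 were negative, with a median of -0.38. Psma5 (mm10 chromosome 3, 108256926 to 108279974, plus strand) had the lowest value of all tested members, -0.90 ± 0.18 (SE, adjusted p = 1.59e-05) per the authors' deposited table. Psma4 (mm10 chromosome 9, 54950790 to 54958030, plus strand) had the smallest adjusted p of all members, with -0.77 ± 0.14 (SE, adjusted p = 2.03e-06) per the authors' deposited table. The most abundant alpha gene was Psma2, at 4661 normalized counts, with -0.51 ± 0.14 (SE, adjusted p = 0.00257) per the authors' deposited table. Psma7, Psma6 and Psma3 lay between -0.63 and -0.50. Psma1 stood nearest to the threshold, with -0.37 ± 0.15 (SE, adjusted p = 0.0483) per the authors' deposited table.

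The structural beta subunits, which carry no active catalytic site, were negative in 4 of 4 genes, and in 2 of 4 with the trends removed. Psmb4 had the smallest adjusted p of the class, with -0.66 ± 0.15 (SE, adjusted p = 0.000135) per the authors' deposited table. Psmb1 was the most abundant, at 4603 normalized counts, with -0.44 ± 0.11 (SE, adjusted p = 0.000983) per the authors' deposited table. Psmb2 and Psmb3 had -0.67 and -0.41.

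The 3 constitutive catalytic genes were negative, with a median of -0.69. Of their 3 interferon-inducible counterparts 1 was negative, with a median of -0.32. After trend removal 3 and 0 were negative, with medians of -0.53 and -0.26. Over all genes tested 13.5% were negative as deposited, and 11.5% of protein-coding genes were so after trend removal. With 3 genes on each side, the 2 counts were not tested against each other. Psmb5, the chymotrypsin-like subunit (mm10 chromosome 14, 54614119 to 54618022, minus strand), had -0.87 ± 0.18 (SE, adjusted p = 4.4e-05) per the authors' deposited table. Psmb8, its immune counterpart (mm10 chromosome 17, 34197721 to 34201454, plus strand), had -0.40 ± 0.14 (SE, adjusted p = 0.0236) per the authors' deposited table. Psmb6, the caspase-like subunit (mm10 chromosome 11, 70525367 to 70527858, plus strand), had -0.60 ± 0.14 (SE, adjusted p = 0.000397) per the authors' deposited table. Psmb9, which takes its place in the immunoproteasome and lies near Psmb8 in the MHC (mm10 chromosome 17, 34181987 to 34187764, minus strand), had -0.32 ± 0.13 (SE, adjusted p = 0.0522) per the authors' deposited table. Psmb7, the trypsin-like subunit (mm10 chromosome 2, 38588036 to 38644087, minus strand), had -0.69 ± 0.16 (SE, adjusted p = 0.000316) per the authors' deposited table. Psmb10, its immune counterpart (mm10 chromosome 8, 105935735 to 105938444, minus strand), had -0.26 ± 0.14 (SE, adjusted p = 0.153) per the authors' deposited table.

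In each pair the immune gene was nearer to 0. The log2 fold change of Psmb8 exceeded that of Psmb5 by 0.47, that of Psmb9 exceeded that of Psmb6 by 0.27, and that of Psmb10 exceeded that of Psmb7 by 0.43. By the union of annotated exons, Psmb5 and Psmb6 are shorter than their immune counterparts and Psmb7 is longer than Psmb10. After removal of trends on these annotated lengths and on GC content, the differences were 0.26, 0.11 and 0.46 in the same order. These differences were not tested, since the covariance of 2 deposited fold changes is not known. Exons of Nek6 on the other strand cover 11.8% of the exonic bases of Psmb7. Nek6 had -0.29 at 505 normalized counts per the authors' deposited table. The fold change of Psmb7 and its difference from Psmb10 are therefore uncertain if strand was not counted. The 95% intervals of the partners overlap in each pair. For Psmb8 the interval ran from -0.68 to -0.12, and for Psmb5 from -1.24 to -0.51.

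In the regulatory particle 11 of 18 genes were negative, with a median of -0.44, and 6 of 18 after trend removal. Shares to set beside these and the class counts below are 13.5% negative over all genes and 23.4% over the most abundant 25%. After trend removal the share was 11.5% of protein-coding genes. Of the 3741 most abundant genes, 666 were then negative, with trends removed for protein-coding genes only. In the ATPase ring, which unfolds substrates, 5 of 6 genes were negative as deposited, 2 at an adjusted p below 0.01 and only 1, Psmc3, after trend removal. Psmc3, the most abundant of the ring and the one with the smallest adjusted p, had -0.44 ± 0.12 (SE, adjusted p = 0.00351) per the authors' deposited table. Exons of Slc39a13 on the other strand cover 8.25% of the exonic bases of Psmc3, and Slc39a13 had 0.78 per the authors' deposited table, so that the value of Psmc3 is uncertain if strand was not counted. Psmc1 had the lowest value of the ring, -0.63 ± 0.21 (SE, adjusted p = 0.014), and Psmc5, Psmc4 and Psmc6 lay between -0.50 and -0.41 per the authors' deposited table. Psmc2 had -0.35 ± 0.16 (SE, adjusted p = 0.099) per the authors' deposited table.

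Among the non-ATPase genes of the base, 1 of 4 was negative, against 13.5% of all genes tested. Psmd1, the scaffold that holds Adrm1, had -0.61 ± 0.17 (SE, adjusted p = 0.00326) per the authors' deposited table. The other 3 encode the ubiquitin receptors of the particle. None of these passed by the authors' test, and 2 of the 3 were below 0.05 before adjustment. Psmd2, the most abundant of all members at 6857 normalized counts, had -0.31 ± 0.15 (SE, adjusted p = 0.132) per the authors' deposited table. Adrm1 (mm10 chromosome 2, 180171485 to 180176286, plus strand) had -0.30 ± 0.13 (SE, adjusted p = 0.0878) per the authors' deposited table. Psmd4 (mm10 chromosome 3, 95032694 to 95042614, minus strand) had the value nearest to 0 of all tested members, -0.05 ± 0.11 (SE, adjusted p = 0.791) per the authors' deposited table. Its 95% interval ran from -0.26 to 0.16, and the median of the members, -0.44, lay outside it. Psmd4 was picked for its value, and the interval takes no account of that choice, so a difference from the other members was not tested.

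In the lid 5 of 8 genes were negative, with a median of -0.54, and 4 of 8 after trend removal. Psmd13 (mm10 chromosome 7, 140881968 to 140898643, plus strand) had the smallest adjusted p of the class, with -0.78 ± 0.16 (SE, adjusted p = 2.97e-05) per the authors' deposited table. Exons of Sirt3 on the other strand cover 10.1% of its exonic bases. Psmd14, the metalloprotease that cuts the ubiquitin chain off the substrate, had -0.60 ± 0.15 (SE, adjusted p = 0.000848) per the authors' deposited table. Psmd7, its inactive partner in the same heterodimer, had -0.51 ± 0.18 (SE, adjusted p = 0.0243) per the authors' deposited table. Psmd8, the most abundant lid gene at 4018 normalized counts, had -0.58 ± 0.13 (SE, adjusted p = 0.000175) per the authors' deposited table, and Psmd6 had -0.74 ± 0.18 (SE, adjusted p = 0.000535). Psmd3 and Psmd12 had -0.33 and -0.30 and did not pass. Psmd11 had -0.09 ± 0.13 (SE, adjusted p = 0.70) per the authors' deposited table.

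Of the 5 assembly factors of the core, 3 were negative, with a median of -0.49. After trend removal 1 was negative, Pomp, and the median was -0.20. Pomp, the chaperone that each new core degrades as its first substrate (mm10 chromosome 5, 147860461 to 147876456, plus strand), had -0.48 ± 0.12 (SE, adjusted p = 0.00093) per the authors' deposited table. Psmg1 and Psmg2 form a dimer that guides the alpha ring. Psmg1 had -0.63 ± 0.22 (SE, adjusted p = 0.024) and Psmg2 had -0.49 ± 0.18 (SE, adjusted p = 0.0296) per the authors' deposited table. After trend removal they had -0.34 and -0.20 and no longer passed. Psmg3 and Psmg4 form a second such dimer and did not pass. Psmg3 had -0.28 ± 0.30 (SE, adjusted p = 0.554) at 111 normalized counts, and Psmg4 had -0.56 ± 0.24 (SE, adjusted p = 0.0782) at 180 per the authors' deposited table. These are the 2 tested members with the largest SEs.

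Of the 3 chaperones that assemble the base, 0 were negative by the authors' test, and 1 was below 0.05 before adjustment. Psmd10, known as gankyrin, had -0.33 ± 0.17 (SE, adjusted p = 0.136) per the authors' deposited table. Psmd5 had -0.10 ± 0.13 (SE, adjusted p = 0.611) and Psmd9 had -0.09 ± 0.16 (SE, adjusted p = 0.736) per the authors' deposited table. Core and base factors were not tested against each other.

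The activators are caps that open the core without ubiquitin, and 1 of 4 was negative as deposited and 0 after trend removal. Over all genes tested 13.5% were negative as deposited, and 11.5% of protein-coding genes were so after trend removal. Psme3, the nuclear cap, had -0.37 ± 0.14 (SE, adjusted p = 0.0428) per the authors' deposited table. Psme1 (mm10 chromosome 14, 55578123 to 55581529, plus strand) and Psme2 (mm10 chromosome 14, 55587441 to 55591113, minus strand) encode the interferon-inducible cap and lie close together. Psme1 had -0.23 ± 0.13 (SE, adjusted p = 0.193) and Psme2 had -0.26 ± 0.12 (SE, adjusted p = 0.115) per the authors' deposited table. Psme2b, a close copy of Psme2 that may share its reads, had 0.31 at 178.3 normalized counts per the authors' deposited table, so that the value of Psme2 is uncertain. Psme4, the large single-chain cap, had -0.38 ± 0.21 (SE, adjusted p = 0.192) per the authors' deposited table. Psmf1, an inhibitor of the core, had -0.28 ± 0.13 (SE, adjusted p = 0.10) per the authors' deposited table.

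Levels were compared between genes as mean normalized counts per kilobase of exon. On this scale the 14 constitutive core genes ran from 137 to 2701 with a median of 1280.4, and the regulatory particle from 252 to 1773 with a median of 765. The lowest core level was that of Psmb7, 137 per kilobase, and the next lowest that of Psma4, 827. Psmb10 stood at 1116 per kilobase, 8.12 times the level of Psmb7. Psmb8 and Psmb9 had levels of 761 and 778 per kilobase, below Psmb5 at 1262 and Psmb6 at 1656. The divisor is the union of all annotated exons, 3381 bases for Psmb8 and 899 for Psmb5, so these levels depend on the annotation. Before division Psmb8 had 2573 normalized counts and Psmb5 had 1134, the opposite order. Psmb9 had 2846 against 3100 for Psmb6, and Psmb10 had 1903 against 470 for Psmb7, the same order as per kilobase. The level of Psmb7 is uncertain, because exons of Nek6 on the other strand cover 11.8% of its exonic bases and the handling of strand is not stated. Psme1 and Psme2 had levels of 2105 and 1775 per kilobase, and Psme4 had 30.5, the lowest of the 48. Psmg3 had a level of 38.2 per kilobase, and the other core assembly factors lay between 269.6 and 408. These levels are means over all libraries and carry no replicate error here.

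**Figure D3:**
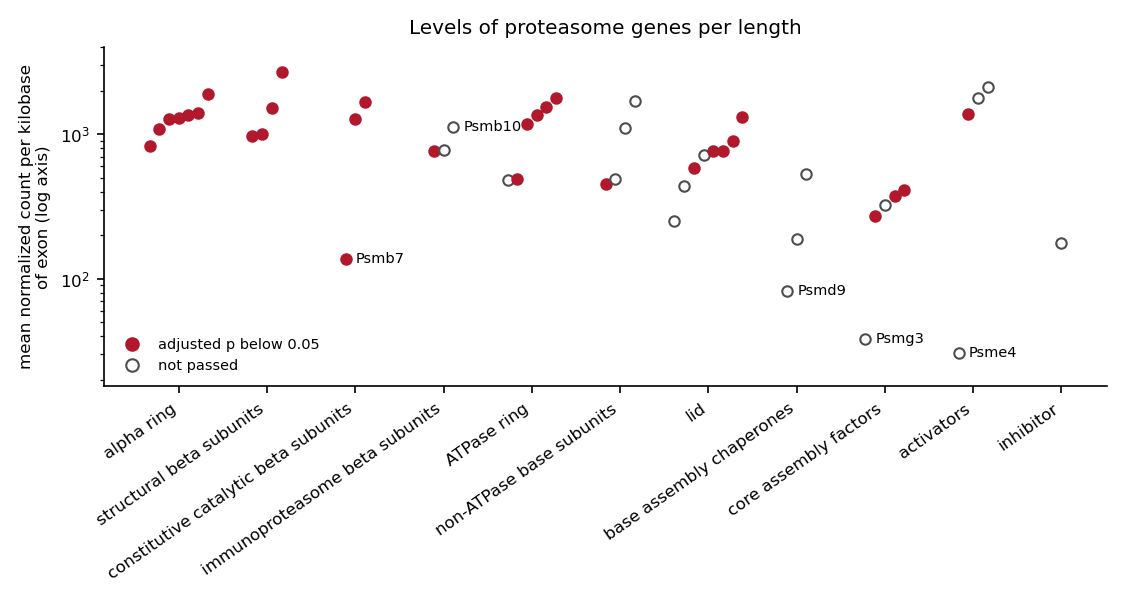
Mean normalized count per kilobase of exon (log axis) of the 48 tested proteasome genes by subunit class, from the deposited means over all libraries of the fit. Red points are negative genes and open points those that did not pass. Psmb7 stands at 137, apart from the other constitutive core genes at 827 and above.

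Fold change varied with gene length in the whole table, and the members are short. Over 13036 protein-coding genes the Spearman rho between exonic length and log2 fold change was 0.26, and over the 48 members it was 0.40, both as descriptions across genes of the same libraries. The median exonic length was 2856.5 bases for the members, against 4586 bases for all these genes. The trend on length at the members had a median of -0.14. Once trends on length and GC content were taken out, the median of the members was -0.32, against 0.0015 over all these genes, and 46 members had values below 0. The 2 above 0 were Psmd4 at 0.08 and Psmd10 at 0.01. Of the 48, 17 were then negative (35.4%), against 11.5% of the 13036 genes, and 0 were positive. Most members are abundant, and of the 3741 most abundant genes 666 were then negative, with trends removed for protein-coding genes only.

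Those 17 were all among the 30 of the deposited fit. They comprised 10 of the 14 constitutive core genes, namely Psma2, Psma3, Psma4, Psma5, Psma7, Psmb1, Psmb4, Psmb5, Psmb6 and Psmb7. The others were the lid genes Psmd6, Psmd8, Psmd13 and Psmd14, the base genes Psmc3 and Psmd1, and the chaperone Pomp. Psmd13 had -0.70 with an adjusted p of 0.000251 after trend removal. Psmd1, the longest of the 17 at 7265 exonic bases, had -0.64 with an adjusted p of 0.00179. Psmb8 had -0.31 with an adjusted p of 0.0961 and no longer passed. The part of RNA quality and library preparation in the length trend was not tested.

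**Figure D4:**
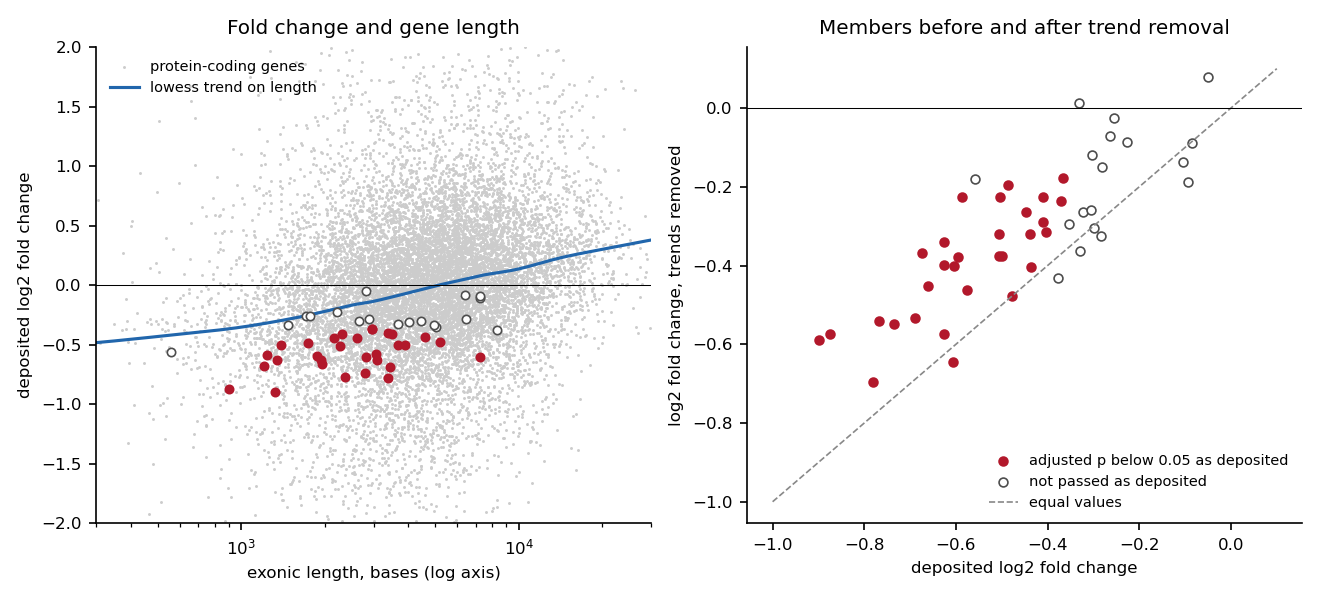
Left, deposited log2 fold change against exonic length (log axis) for 13036 protein-coding genes (grey, 221 fall outside the axes), with the lowess trend in blue and proteasome genes in red (negative) or open (not passed). Right, each of the 48 members before and after removal of the trends. Most points lie above the dashed line of equal values, and 46 lie below 0.

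Promoters of the members were searched for the letters of 5 motifs, on both strands. RefSeq promoters on GRCm38.p6, from 250 bases before to 50 bases after the start, were matched by symbol for 42 members. Psma8, Psmb1, Psmb2, Psmb7, Psmc3, Psmd3, Psmd7 and Psmg2 had no entry. The 42 members had 45 windows, and a member or tested gene counted once if any of its windows matched. The share of all promoters counts single windows, so that only the share of tested genes is counted like that of the members. TGACNNNGC, the core of the antioxidant response element through which NFE2L1 and NFE2L2 act on proteasome genes, was present in 7 of 42 members (16.7%), against 12.4% of all 32851 promoters and 17.1% of the 9969 tested protein-coding genes with a promoter. It stood in 3 of 24 negative members and in 4 of 17 that did not pass. The ETS core CCGGAAG was present in 16 members (38.1%), against 8.86% of all promoters and 19.4% of the tested genes. It stood in 8 of the 24 negative members and in 8 of the 17 that did not pass. CCAAT was found in 15 members (35.7%), against 37.4% of all promoters and 42.6% of the tested genes. The E-box CACGTG was found in 4 members (9.52%), against 7.15% of all promoters and 11.4% of the tested genes. The core of the interferon-stimulated response element was found in 5 members (11.9%), against 3.44% of all promoters and 3.81% of the tested genes, and these were Psmb3, Psmd4, Psmd9, Psme1 and Psmg4. In only the 150 bases before the start, that interferon core was found in 1 member (2.38%), against 1.80% of the tested genes. A match is a description of letters in a window and not a binding site.

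The 2 constitutive catalytic genes with TGACNNNGC are shown as the 150 bases before the start, 5′ to 3′ on the strand of the gene, with the match in capitals. The window of Psmb5 is chr14:54617996-54618145 on the minus strand (GRCm38.p6), and its match begins 47 bases before the start. The window of Psmb6 is chr11:70525207-70525356 on the plus strand, and its match begins 9 bases before the start.
Psmb5: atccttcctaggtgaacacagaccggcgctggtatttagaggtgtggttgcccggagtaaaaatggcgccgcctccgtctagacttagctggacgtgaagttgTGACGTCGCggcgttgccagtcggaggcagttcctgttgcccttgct
Psmb6: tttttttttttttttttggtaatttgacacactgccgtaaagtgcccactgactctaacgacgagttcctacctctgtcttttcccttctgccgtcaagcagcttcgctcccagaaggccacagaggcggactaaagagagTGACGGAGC

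The ETS core occurred on both sides of the threshold, and it is shown in the same way in the negative members Psmg1 and Psme3 and in Psmd11 and Psmd2, which did not pass. Capitals mark CCGGAAG or its reverse complement CTTCCGG. On GRCm38.p6 the window of Psmg1 is chr16:95990961-95991110 on the minus strand and that of Psme3 is chr11:101316063-101316212 on the plus strand. The window of Psmd11 is chr11:80428465-80428614 on the plus strand and that of Psmd2 is chr16:20651502-20651651 on the plus strand.
Psmg1: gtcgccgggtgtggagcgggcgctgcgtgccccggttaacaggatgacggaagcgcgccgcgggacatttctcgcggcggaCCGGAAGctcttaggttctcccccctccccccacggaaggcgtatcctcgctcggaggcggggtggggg
Psme3: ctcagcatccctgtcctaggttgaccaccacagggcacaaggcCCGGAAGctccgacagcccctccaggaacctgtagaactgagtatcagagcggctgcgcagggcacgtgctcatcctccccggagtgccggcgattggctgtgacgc
Psmd11: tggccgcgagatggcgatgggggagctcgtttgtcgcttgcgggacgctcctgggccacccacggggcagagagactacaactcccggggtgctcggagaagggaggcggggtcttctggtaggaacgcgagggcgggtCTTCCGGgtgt
Psmd2: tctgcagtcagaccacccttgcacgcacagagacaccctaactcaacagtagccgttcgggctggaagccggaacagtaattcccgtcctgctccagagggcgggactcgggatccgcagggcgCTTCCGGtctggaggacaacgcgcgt

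Over all genes tested, 13.5% were negative and 11.0% positive, the shares to set beside the list and marker counts below. Among 10 genes for factors of proteasome transcription and their processing, 1 was negative and 0 positive, with a median of 0.18. Nfe2l1, the factor that raises proteasome genes when proteasome activity is short, had 0.24 ± 0.12 (SE, adjusted p = 0.148) per the authors' deposited table. Ddi2, the protease that frees it, had 0.34 ± 0.17 (SE, adjusted p = 0.129), and Nfe2l2 had -0.06 ± 0.16 (SE, adjusted p = 0.819) per the authors' deposited table. The negative gene was Nfyb, a subunit of the CCAAT-binding factor, with -0.52 ± 0.17 (SE, adjusted p = 0.0107) per the authors' deposited table. Of 11 oxidant response targets, many of them served by NFE2L2, 5 were negative and 0 positive, with a median of -0.49. Nqo1, a quinone reductase at 93.6 normalized counts, had the lowest value of that list, -1.61 ± 0.31 (SE, adjusted p = 7.77e-06) per the authors' deposited table. The other negative genes were Txnrd1, G6pdx, Taldo1 and Tkt. Hmox1, Gclc, Gclm and Pgd had values below 0 and did not pass. Srxn1 and Slc7a11 lay above 0, at 0.48 and 0.38, and did not pass either.

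Of 16 genes for bound enzymes and shuttle receptors, 3 were negative and 0 positive, against 13.5% and 11.0% of all genes tested. Their median was -0.17. Among the negative genes, Uchl5 and Usp14, deubiquitinases that sit on the regulatory particle, had -0.69 ± 0.15 (SE, adjusted p = 9.4e-05) and -0.47 ± 0.13 (SE, adjusted p = 0.00287) per the authors' deposited table. Sem1, the smallest lid subunit, lies outside the naming rule and had -0.26 ± 0.12 (SE, adjusted p = 0.101) per the authors' deposited table. Of 17 genes around the unfoldase VCP, 2 were negative and 0 positive, with a median of -0.08. Vcp itself had -0.44 ± 0.17 (SE, adjusted p = 0.0363) per the authors' deposited table, and Derl3 had -2.76 ± 0.84 (SE, adjusted p = 0.00733) at only 17.4 normalized counts. Of 6 genes for ubiquitin and its activating enzymes, 1 was negative and 1 positive, with a median of -0.04. The negative gene was Rps27a, a fusion of ubiquitin to a ribosomal protein, with -0.37 ± 0.13 (SE, adjusted p = 0.0177) per the authors' deposited table.

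Of 14 interferon response genes, 6 were positive and 1 negative, with a median of 0.51. The positive genes included Usp18 with 1.62 ± 0.22 (SE, adjusted p = 6.18e-11) and Irf7 with 0.87 ± 0.16 (SE, adjusted p = 1.72e-06) per the authors' deposited table, and the negative one was Gbp3 with -1.06 ± 0.18 (SE, adjusted p = 9.25e-08). Of 10 genes of class I antigen processing, 3 were positive and 0 negative, with a median of -0.02. These were the transporter gene Tap2 with 0.31 ± 0.10 (SE, adjusted p = 0.0122) and the class I genes H2-K1 with 0.62 ± 0.15 (SE, adjusted p = 0.000645) and H2-D1 with 0.42 ± 0.13 (SE, adjusted p = 0.0076) per the authors' deposited table. Tap1, whose exons cover 5.79% of the exonic bases of Psmb9 on the other strand, had -0.05 ± 0.14 (SE, adjusted p = 0.825) per the authors' deposited table. By comparison Psmb8, Psmb9, Psmb10, Psme1 and Psme2 had values between -0.40 and -0.23, with 1 of the 5 past the threshold.

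All 8 genes of the chaperonin, the folding barrel of actin and tubulin, were negative, with a median of -0.65 and a range of -0.80 to -0.54. All 14 proliferation genes were negative too, with a median of -1.28, and Ccnb1, the mitotic cyclin, had -1.83 ± 0.28 (SE, adjusted p = 6.96e-09) per the authors' deposited table. The part of dividing cells in the proteasome values was not tested. Markers of other cell types were also present. Of 6 B and plasma cell markers 3 were negative and 0 positive (median -0.94), and of 7 dendritic cell markers 3 were negative and 0 positive (median -0.32). For macrophages 1 of 7 was negative, for T cells 2 of 5 and for epithelium 0 of 4, with 0 positive in each list and medians of -0.48, -0.52 and -1.25. The abundant ones among them included Cd74 at 11427, Sftpc at 7594 and Ighm at 6265 normalized counts per the authors' deposited table. Their part in the proteasome values was not tested.

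**Figure D5:**
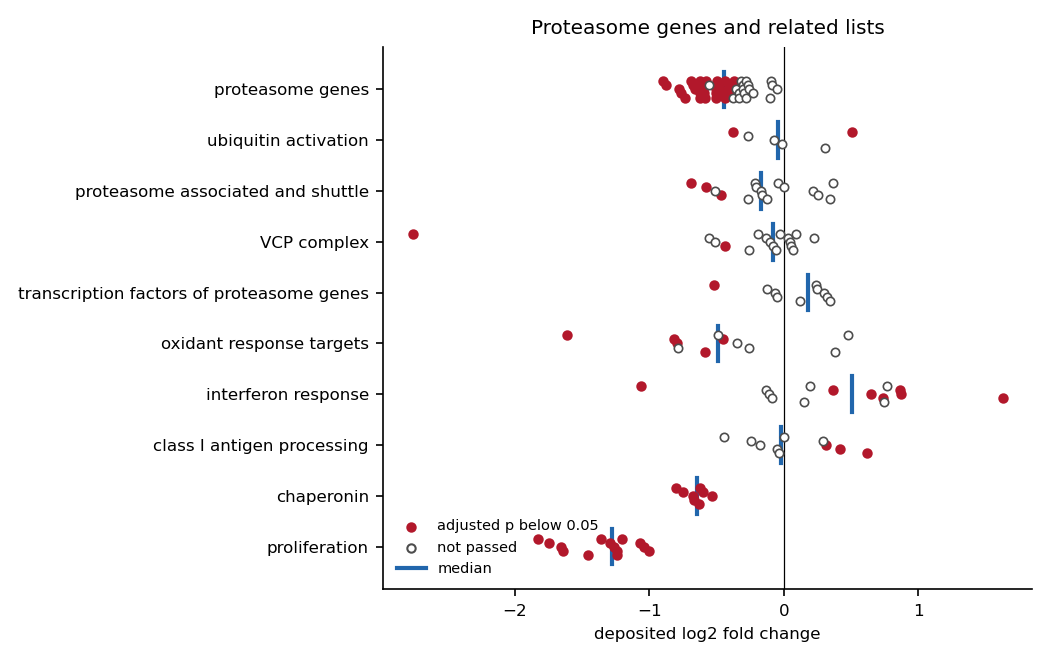
Deposited log2 fold change of each tested gene in the proteasome set and 9 related lists, with filled points for an adjusted p below 0.05 and a blue bar at the list median. The proteasome median lies at -0.44, that of the chaperonin at -0.65, that of proliferation at -1.28 and that of the interferon list at 0.51.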

How the data were processed

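Per the labels' protocols, RNA of 6 pooled samples was made into full-length cDNA with a SMART-Seq HT kit and into libraries with a TruePrep kit. The submitters' processing notes name HISAT2 and Cufflinks as tools and mm10 as build. For the counting tool, the annotation and the use of strand, the sources used here say nothing. Per the file headers, the authors deposited a mean normalized count (a signal over the libraries of their fit, whose number is not stated). The file headers further name a deposited log2 fold change with its SE, a score (fold change over SE) and both a raw and an adjusted p-value. The depth of single samples was not used: 12 columns under 6 names match no label and entered no result, so that the authors' comparison replaced the planned count fit. Nothing ties a pool to separate cultures or litters, and p-values measure only the spread between libraries.

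Genes were called at a deposited adjusted p below 0.05, and intervals are 95% intervals from the deposited SE. Exonic length (union of exons), GC content (longest transcript) and coordinates came from GENCODE M21 on mm10, found for all 50 members. Lowess trends on length and then GC (span 0.3) were subtracted with statsmodels 0.14.6, and p was recomputed from the deposited SE and adjusted over 13036 genes. Python 3.11.15 was used with numpy 2.4.6, pandas 2.3.3, matplotlib 3.10.9 and scipy 1.17.1, and the steps were tested on simulated data. Members and lists were chosen with earlier results of these data known. Named in full were, per class, the called member with the smallest p and the most abundant member, all catalytic subunits, activators, assembly factors, Adrm1, Psmf1 and members without an adjusted p. Other members, and the genes picked from the related lists, were named after their values were seen. Sem1, Ecpas and Ufd1 were matched by identifier, and Paaf1 was not analysed here. Values of some single genes of the related lists are not reported here.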

Additional observations from a re-analysis of the deposited data

How the results depend on the processing

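Of the 48 tested members, 30 were negative as deposited. The count was 21 at an adjusted p below 0.01, 23 when p was adjusted over every gene with a p-value, 31 over protein-coding genes alone and 27 after centring on the most abundant 25% of genes. It was 19 with a log2 fold change of at least 0.5 in size, where the added limit can only lower it. It was 17 with the trends on length and GC taken out, at a lowess span of 0.3 and of 0.6, and the cause was not tested. Each span ended the call of 13 members. Trend removal turned the sign of Psmd4 (0.0787, or 0.0705 at a span of 0.6) and of Psmd10 (0.012 at a span of 0.3), neither of which passed. The median of the members was -0.32 at both spans. In the related lists, 35 negative and 10 positive genes became 30 and 8 at an adjusted p below 0.01. In only the 150 bases before the start, TGACNNNGC was found in 3 members in place of 7. That is 7.14% of members, against 9.80% of the tested genes in this window. The interferon-stimulated element was found in 1 member in place of 5. That is 2.38% of members, against 1.80% of the tested genes in this window. A shorter window holds fewer matches for members and tested genes alike. No paired analysis was possible because the usable columns carry no replicate number. For the same reason DESeq2 against edgeR, another filter on counts and leaving out replicates were not run.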
